A study of Homo sapiens with 4 samples.

Results

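Properdin, encoded by CFP, and 9 other genes of the complement system were followed in Kasumi-1, a human cell line grown from an acute myeloid leukemia, with and without knockdown of ANP32B. The 10 genes are CFP, CFD, C3, C3AR1, C5AR1, CR1, CD46, CD55, CD59 and C1QBP. Rows were found by gene symbol for 9 of them among the 18567 genes of the table, and CD59 was not analysed here. The genes were selected on the measured TPM values of the same contrast, in which CFP had one of the greatest rises, so the differences of these genes between the groups are given as a description, without p-values. RNA sequencing had been done on 2 control samples, called NC, and on 2 samples with short hairpin RNA (shRNA) knockdown of ANP32B, called sh-ANP32B. The sample labels give NC as Kasumi-1 without a hairpin or treatment, and the study methods give a hairpin control (sh-NC) for its knockdown experiments, so infection with lentivirus and puromycin selection may or may not be shared by both groups. All samples are of this 1 line in culture, the labels do not name the hairpin of either sh-ANP32B sample, and nothing states that replicates were separate infections, so every p-value below measures the spread between these samples only, which may be technical.

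Complement is a cascade of plasma proteases that marks surfaces with fragments of C3 and ends in a pore in the membrane. In the alternative pathway, factor D (CFD) cleaves factor B bound to C3b, and properdin holds the resulting convertase together, which makes properdin the known positive regulator of the cascade. The liver makes most C3, whereas properdin comes mainly from neutrophils, monocytes and other leukocytes, and factor D from fat tissue and myeloid cells. Host cells carry membrane proteins that dismantle convertases (CR1, CD46, CD55) or stop the pore (CD59), and myeloid cells sense the released C3a and C5a peptides through C3AR1 and C5AR1.

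ANP32B was read first as a check of the labels. Levels are in TPM, which divides the signal of a gene by its transcript length and scales it to the sample total. ANP32B had 384 and 392 TPM in NC against 51.8 and 41.2 TPM in sh-ANP32B, a difference of -3.04 on the log2 scale with SE 0.150 (adjusted p 0.00516 by limma). The TPM values of a sample summed to between 997812 and 998314, and the depth is unknown. Mitochondrial transcripts made up 12.9% and 13.1% of the total in NC, and 11.4% and 8.43% in sh-ANP32B. Of the 7 marker genes of the Kasumi-1 blast, 5 had rows, RUNX1, RUNX1T1, KIT, CD33 and PTPRC, and their summed level was 313 to 325 TPM in NC and 389 to 436 TPM in sh-ANP32B. Most of this sum came from RUNX1 and PTPRC, with means of 122 and 115 TPM in NC. KIT was low, with 1.55 and 2.31 TPM in NC against 3.41 and 2.76 TPM in sh-ANP32B. By limma, 0 of these 5 genes were higher and 0 lower at an adjusted p under 0.05. CD34 and MPO were not analysed here. Of the monocyte and macrophage markers, lysozyme (LYZ) had 669 and 697 TPM in NC against 1360 and 1316 TPM in sh-ANP32B and rose (log2 fold change 0.97, limma adjusted p 0.0281), whereas CSF1R was at 4.20 TPM or lower in every sample and CD14, CD163, MRC1 and FCGR3A were not analysed here. The 5 T cell markers had 1 row, CD2, at 1.57 and 1.65 TPM in NC against 9.25 and 9.48 TPM in sh-ANP32B. The 5 hepatocyte markers had 1 row (TF, 4.97 to 8.87 TPM), and the 5 erythroid and 5 fibroblast markers none. Of 16 interferon response genes, 13 had rows, summing to 475 to 485 TPM in NC and 605 to 668 TPM in sh-ANP32B, and 1 rose (IFI6, log2 fold change 0.93, limma adjusted p 0.0431). The part of these markers in the results below was not tested. In bulk RNA, more cells of a mature kind and more RNA of a gene in each cell cannot be told apart.

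The members spanned a wide range of levels in NC. Per transcript length, the order of mean TPM was C1QBP, CD46, C3, CD55, CFD, CFP, C3AR1, CR1 and C5AR1, from 301 TPM down to 1.90 TPM. The replicate ranges of neighbours in this order overlapped for CFP and C3AR1 and for no other neighbouring pair. In sh-ANP32B the order became C1QBP, C3, CFD, CD46, CD55, CFP, C3AR1, CR1 and C5AR1. There, the ranges overlapped between CFD and CD46, between CD55 and CFP, and between CR1 and C5AR1. C3 had moved up past CD46 and close to C1QBP, and CFD had moved up past CD55, whereas the ranges of CFD and CD46 overlapped.

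**Figure D1:**
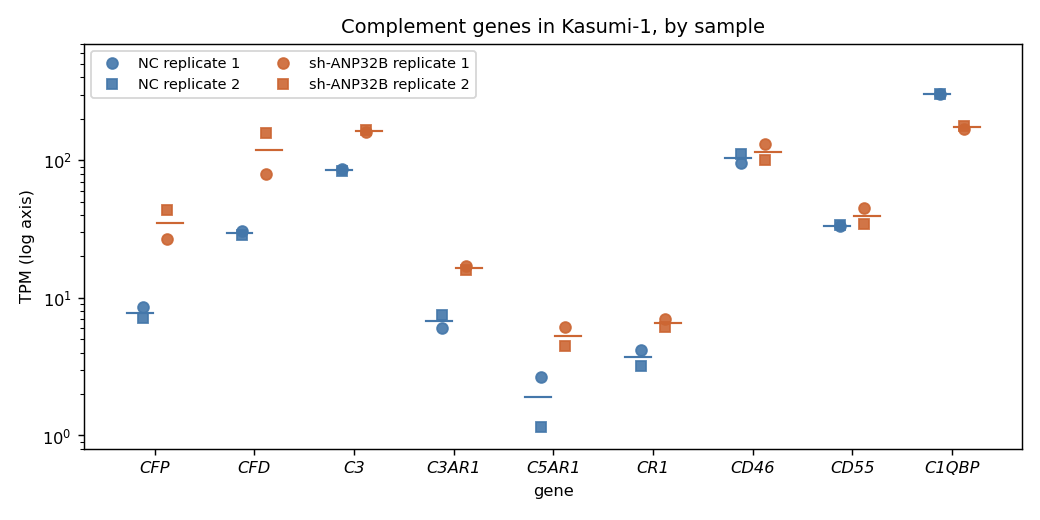
Level of 9 complement genes in TPM (log axis) in the 2 NC and 2 sh-ANP32B samples, circles for replicate 1 and squares for replicate 2, with lines at the group means. The sh-ANP32B samples lie above both NC samples for CFP, CFD, C3, C3AR1, C5AR1, CR1 and CD55 and below them for C1QBP. For CD46 replicate 1 lies above both NC samples and replicate 2 between them.

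The promoters of the members were read next, because genes that move together can share sequence upstream. RefSeq (GRCh38.p14) gave promoter windows for 9 of the 10 members and none for C3. Each window was searched on both strands, over the 250 bases before the start, for GAGGAAG (PU.1 or ETS factors), TGTGGT (RUNX factors, complement ACCACA), TTGCNNAA (C/EBP factors) and CACGTG (the E-box of MYC). These letters occurred in 11.2%, 11.0%, 9.05% and 6.34% of the 35116 promoters of the table. Kasumi-1 carries the RUNX1-RUNX1T1 fusion, which keeps the DNA-binding part of RUNX1. Shown 5′ to 3′ on the strand of the gene are the windows, free of annotated exons, of 4 members with values, CFP at chrX:47630306-47630555 (minus strand), C5AR1 at chr19:47309611-47309860 (plus strand), C3AR1 at chr12:8066360-8066609 (minus strand) and C1QBP at chr17:5439156-5439405 (minus strand). The windows of C5AR1 and C1QBP lie within the annotated span of their own genes, in an intron of longer transcripts. Matches are in capitals:
CFP: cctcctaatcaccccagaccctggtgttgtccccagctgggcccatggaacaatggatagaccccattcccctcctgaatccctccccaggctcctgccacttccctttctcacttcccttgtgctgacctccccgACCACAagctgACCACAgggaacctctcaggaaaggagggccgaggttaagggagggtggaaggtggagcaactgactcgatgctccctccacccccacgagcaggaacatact
C5AR1: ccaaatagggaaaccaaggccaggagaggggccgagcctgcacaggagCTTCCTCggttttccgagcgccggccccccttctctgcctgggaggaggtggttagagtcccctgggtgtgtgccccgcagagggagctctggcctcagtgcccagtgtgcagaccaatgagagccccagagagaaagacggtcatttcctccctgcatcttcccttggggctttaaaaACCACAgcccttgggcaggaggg
C3AR1: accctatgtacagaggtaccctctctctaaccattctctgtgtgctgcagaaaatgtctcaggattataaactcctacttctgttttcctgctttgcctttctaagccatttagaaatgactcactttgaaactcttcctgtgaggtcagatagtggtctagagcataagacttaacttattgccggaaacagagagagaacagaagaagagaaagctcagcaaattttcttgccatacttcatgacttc
C1QBP: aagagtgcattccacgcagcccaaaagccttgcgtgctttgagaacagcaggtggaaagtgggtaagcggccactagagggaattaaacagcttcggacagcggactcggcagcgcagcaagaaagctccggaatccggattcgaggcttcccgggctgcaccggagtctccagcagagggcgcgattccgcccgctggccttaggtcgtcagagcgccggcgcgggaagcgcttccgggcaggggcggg

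The CFP window, which lies before the outermost of the 2 RefSeq starts, held 2 RUNX matches, beginning 114 and 103 bases before the start. The window of the inner CFP start held none of the motifs. C5AR1 had 1 RUNX match beginning 23 bases before the start and 1 PU.1 or ETS match beginning 202 bases before it. Among members whose windows overlap annotated exons, CR1 had 1 RUNX match 43 bases before the start and CD55 had 1 at 117 bases, whereas CFD and CD46 had no match to any motif. C3AR1 and C1QBP also had none. CD59 has no values here, and its 4 windows held 1 RUNX and 2 C/EBP matches. CACGTG was found in no window of a member. A match is only a run of letters, and binding was not measured in these samples.

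The 3 genes of alternative pathway activation were all higher in both sh-ANP32B samples. CFP (ENSG00000126759), at 47623172 to 47630305 of chromosome X in hg38 (minus strand), had 8.56 and 7.08 TPM in NC against 26.8 and 43.3 TPM in sh-ANP32B. The groups were far apart, while the knockdown replicates differed from each other 1.61-fold. The mean went from 7.82 ± 1.04 TPM to 35.0 ± 11.6 TPM (SD, n = 2 each), a 4.48-fold ratio. On the log2(TPM + 1) scale, used for every fold change here and on which changes of low genes look smaller than they are, the difference was 2.00 (SE 0.256, 95% interval 1.38 to 2.61), the 21st highest of 16817 genes tested.

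CFD (ENSG00000197766), which encodes factor D, the serine protease that starts the alternative pathway convertase, spans 859453 to 867884 of chromosome 19 (plus strand). It had 30.7 and 28.5 TPM in NC against 79.2 and 158 TPM in sh-ANP32B. Both knockdown samples were well above NC, but replicate 2 was 2.00 times replicate 1, so the mean of 119 ± 56.1 TPM against 29.6 ± 1.52 TPM (SD, n = 2 each) has a wide error. The log2 fold change was 1.89 (SE 0.303, 95% interval 1.16 to 2.61). C3 (ENSG00000125730), the central component of all complement pathways, spans 6677704 to 6730562 of chromosome 19 (minus strand). C3 stood at 86.2 and 83.8 TPM in NC against 161 and 166 TPM in sh-ANP32B, so the replicates of each group nearly coincided. Mean levels were 85.0 ± 1.72 TPM and 164 ± 3.49 TPM (SD, n = 2 each), a 1.93-fold ratio and a log2 fold change of 0.94 (SE 0.123, 95% interval 0.64 to 1.23).

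Both anaphylatoxin receptors were low in NC and higher in the knockdown samples. C3AR1 (ENSG00000171860, chromosome 12, 8056844 to 8066359, minus strand), the receptor for C3a, had 6.04 and 7.47 TPM in NC against 16.9 and 16.0 TPM in sh-ANP32B. Its groups did not overlap, and its log2 fold change was 1.18 (SE 0.200, 95% interval 0.70 to 1.65). C5AR1 (ENSG00000197405, chromosome 19, 47290023 to 47322066, plus strand), the receptor for C5a that recruits neutrophils and monocytes, had 2.65 and 1.16 TPM in NC against 6.16 and 4.48 TPM in sh-ANP32B. It was the lowest member in every sample, and its NC replicates differed more than 2-fold. The log2 fold change of 1.16 therefore carried a wide error (SE 0.343, 95% interval 0.34 to 1.98).

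The 3 membrane regulators had smaller log2 fold changes than the genes above, but their intervals overlapped that of C5AR1 (0.34 to 1.98). The intervals of CR1 and CD55 also overlapped that of C3 (0.64 to 1.23). CR1 (ENSG00000203710, 207496147 to 207641765), the receptor for C3b and C4b that serves as cofactor for their cleavage, lies on chromosome 1 with CD55 and CD46, all on the plus strand, in the cluster of genes for regulators of complement activation. It had 4.20 and 3.19 TPM in NC against 6.98 and 6.14 TPM in sh-ANP32B, and the difference was 0.69 on the log2 scale (SE 0.244, 95% interval 0.11 to 1.28). The groups did not overlap, at low levels. Its close relative CR1L, the next gene, begins 3348 bases further on and was not analysed here, and reads could be shared between them. CD46 (ENSG00000117335, 207752037 to 207795513), a cofactor for cleavage of C3b and C4b, had 95.8 and 111 TPM in NC against 131 and 101 TPM in sh-ANP32B. Its groups overlapped, and the log2 fold change was 0.15 (SE 0.170, 95% interval -0.26 to 0.56). CD55 (ENSG00000196352, 207321519 to 207386804), the decay-accelerating factor, had 33.1 and 33.7 TPM in NC against 45.0 and 34.2 TPM in sh-ANP32B. Replicate 2 of the knockdown lay close to NC and replicate 1 above it, for a log2 fold change of 0.22 (SE 0.178, 95% interval -0.20 to 0.65). For CD46 and CD55 the intervals include 0 and reach a log2 difference of 0.56 and 0.65, so these samples do not settle whether they rose by less than that.

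C1QBP was the one member that was lower. It encodes a protein first isolated by its binding to the globular heads of C1q, and most of it sits in the mitochondrial matrix, where it is needed for mitochondrial translation. C1QBP (ENSG00000108561, chromosome 17, 5432777 to 5448830, minus strand) had 301 and 301 TPM in NC against 168 and 178 TPM in sh-ANP32B. The NC replicates were almost equal and both knockdown samples lay far below them. Mean levels were 301 ± 0.160 TPM and 173 ± 7.03 TPM (SD, n = 2 each), which is 57.6% of NC, and the log2 fold change was -0.79 (SE 0.119, 95% interval -1.08 to -0.51).

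The make-up of the summed TPM of the 9 genes shifted with these changes. The genes were selected on this contrast, so the shares restate the differences above. The fall of C1QBP, a mostly mitochondrial protein, also raises the shares of the other genes. The summed TPM of the 9 genes was 569 and 577 in NC and 641 and 708 in sh-ANP32B. CFP, CFD and C3 made up 22.1% and 20.7% of this sum in NC and 41.7% and 52.0% in sh-ANP32B. The share of C1QBP was 53.0% and 52.2% in NC and 26.3% and 25.2% in sh-ANP32B. The 3 membrane regulators held 23.4% and 25.6% in NC and 28.5% and 19.9% in sh-ANP32B, so their share did not separate the groups. The level of CFP, CFD and C3 together was 0.942 and 0.807 times that of CR1, CD46 and CD55 in NC. In sh-ANP32B this ratio was 1.46 and 2.61, above both NC values. The knockdown replicates differed along GC content, as described below. GC content was 54.9%, 65.1% and 56.5% for CFP, CFD and C3, and 46.1%, 37.7% and 40.8% for CR1, CD46 and CD55. The part of GC content in this ratio and in the shares was not tested.

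**Figure D2:**
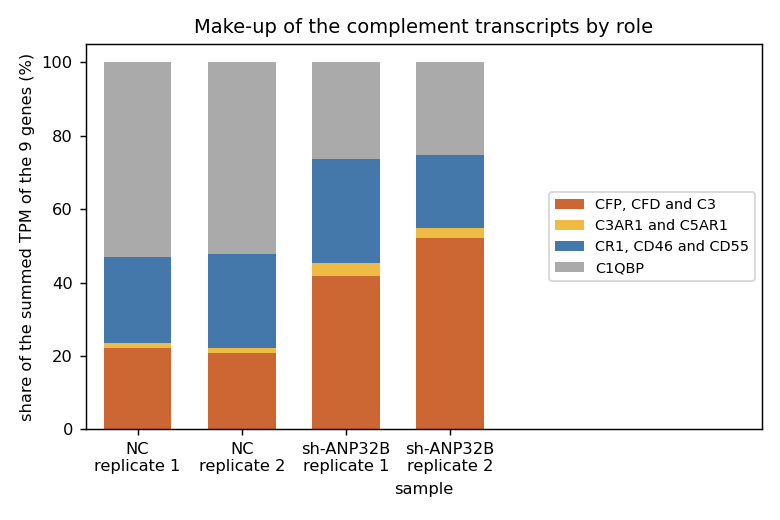
Share (%) of the summed TPM of 9 complement genes in each of the 4 samples, stacked by role: activation (CFP, CFD and C3), anaphylatoxin receptors (C3AR1 and C5AR1), membrane regulators (CR1, CD46 and CD55) and C1QBP. The activation genes hold 20.7% and 22.1% in NC and 41.7% and 52.0% in sh-ANP32B.

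Across the 16817 genes tested, 360 (2.14%) were higher and 199 (1.18%) lower in sh-ANP32B by limma with an adjusted p under 0.05. After median-of-ratios scaling there were 230 higher and 288 lower genes, after upper-quartile scaling 241 and 227, and after quantile normalization 244 and 234. All 9 members with rows were tested, and 4 were past this threshold upward (CFP, CFD, C3 and C3AR1) and 1 downward (C1QBP). These counts repeat what chose the genes, so nothing is read from them. Under the criterion of the study, a log2 fold change past 0.5 in either direction and an unadjusted p under 0.05, 12.1% of all genes were higher and 6.55% lower, against 6 and 1 of the members, with C5AR1 and CR1 added. Both knockdown samples lay above both NC samples for 33.2% of all genes and below them for 21.4%, against 7 and 1 of the members. The median log2 fold change was 0.94 over the 9 members and 0.08 over all genes tested. The count of 5 members by limma fell to 0 without the abundance trend of the variances, where 7 members and 22.0% of all genes had an unadjusted p under 0.05. Fewer members passed without NC replicate 1 or without NC replicate 2, and so did fewer genes of the whole table. Without NC replicate 1 the log2 fold changes were 2.12 for CFP, 1.94 for CFD, 0.96 for C3, 1.04 for C3AR1 and -0.79 for C1QBP. Without NC replicate 2 they were 1.88, 1.84, 0.92, 1.31 and -0.79.

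**Figure D3:**
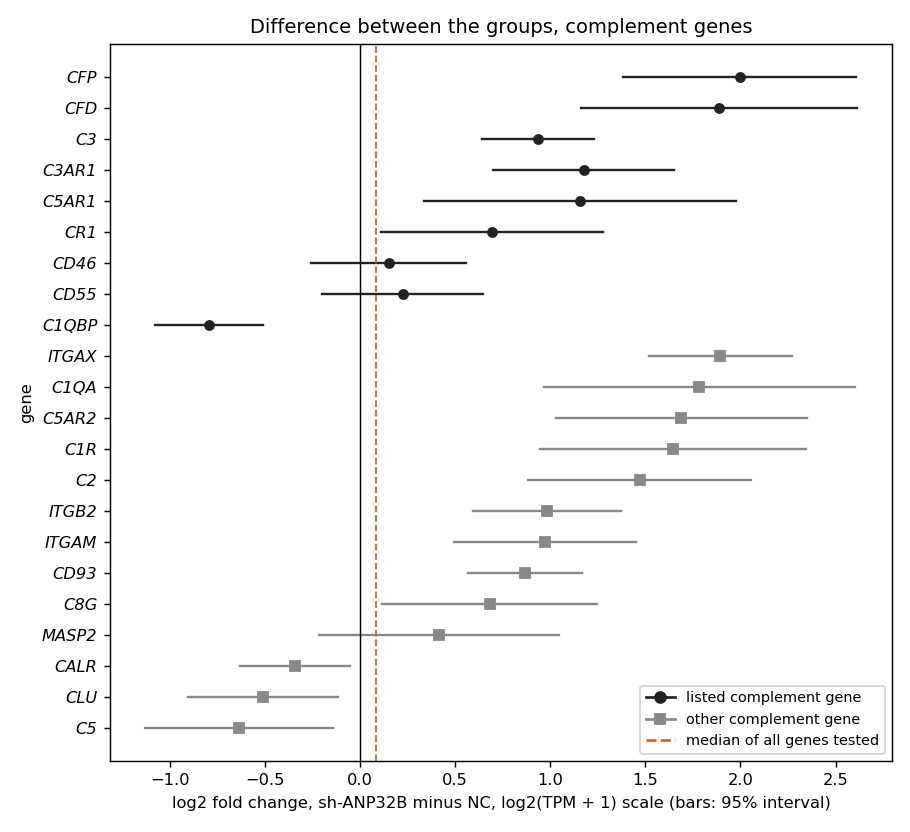
Log2 fold change, sh-ANP32B minus NC, on the log2(TPM + 1) scale with 95% intervals from limma, for 9 listed complement genes (circles) and 13 other complement genes (squares). The dashed line is the median of all genes tested (0.08). CFP and CFD lie near 2 and C1QBP at -0.79, and the intervals of CD46, CD55 and MASP2 cross 0.

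Beyond the members, 49 other complement genes were listed, and 15 of them had rows. The 34 others, among them C1QB, C1QC, C4A, C4B, SERPING1, CFI, CR2 and VSIG4, were not analysed here. Of the 15, C1S and CFB did not reach 1 TPM in 2 samples and were not tested, with at most 1.03 and 0.791 TPM in any sample. Of the 13 tested, C1QA, C1R and C5AR2 met the requirement of 1 TPM in 2 samples only with their sh-ANP32B values. C1R and C5AR2 were under 1 TPM in both NC samples, so they had to be higher in sh-ANP32B to be tested. C1QA had 1.01 TPM in NC replicate 1, and so needed 1 TPM in only 1 sh-ANP32B sample. Of the other 10, which had at least 1 TPM in every sample, 4 rose and 0 fell by limma with an adjusted p under 0.05, beside 2.14% and 1.18% of all genes. Without any filter on low values all 15 genes were tested, and 7 rose and 0 fell, beside 1.81% and 1.02% of all 18567 genes. These 7 are the 4 and the 3 genes admitted by their sh-ANP32B values. An unadjusted p under 0.05 was then found for 12 of the 15 genes and for 22.1% of all genes.

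Of the classical and lectin pathways, C2 rose, and so did C1QA and C1R, which could be tested only because of their sh-ANP32B values. C1QA, a chain of the recognition protein C1q, had 1.01 and 0.918 TPM in NC against 4.14 and 7.90 TPM in sh-ANP32B (log2 fold change 1.78, limma adjusted p 0.0479). C1R, the protease that C1q activates, had 0.658 and 0.527 TPM in NC against 3.71 and 4.27 TPM in sh-ANP32B (log2 fold change 1.65, limma adjusted p 0.0440). Both were near the lower limit of 1 TPM in NC and above it in both knockdown samples, where the 2 values of C1QA differed 1.91-fold. C2, which supplies the protease of the classical convertase, had 5.61 and 3.95 TPM in NC against 13.0 and 16.9 TPM in sh-ANP32B (log2 fold change 1.47, limma adjusted p 0.0422). MASP2, the protease of the lectin pathway, had 8.72 and 7.90 TPM in NC against 14.6 and 8.86 TPM in sh-ANP32B (limma adjusted p 0.391). Its second knockdown sample lay close to NC.

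The terminal pathway and the soluble regulators gave no gene past the adjusted threshold. C5, the precursor of C5a and of the pore, had 15.8 and 18.8 TPM in NC against 12.2 and 9.48 TPM in sh-ANP32B, and the log2 fold change was -0.63 (limma adjusted p 0.131). C8G, a subunit of C8, differed by 0.68 on the log2 scale (limma adjusted p 0.149), and the value for CLU, a soluble inhibitor of the pore, was -0.51 (limma adjusted p 0.130). The groups did not overlap for these 3 genes, as for 33.2% of all genes upward and 21.4% downward.

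Of the 6 other receptors, ITGAX, ITGB2 and CD93 rose, and so did C5AR2, which was tested only because of its sh-ANP32B values. ITGAX, the alpha chain of complement receptor 4, had 10.4 and 10.6 TPM in NC against 41.7 and 41.6 TPM in sh-ANP32B, a log2 difference of 1.89 with SE 0.158 (adjusted p 0.0154 by limma). The replicates of both groups were almost equal. ITGB2, the beta chain shared by complement receptors 3 and 4, was among the 3 highest in NC of the 15 genes with rows, with CALR and CD93. It had 740 and 672 TPM in NC against 1214 and 1600 TPM in sh-ANP32B (log2 fold change 0.98, limma adjusted p 0.0419). ITGAM, the alpha chain of complement receptor 3, missed the threshold at a log2 fold change of 0.97 (adjusted p 0.0551 by limma). C5AR2, the second C5a receptor, which does not signal through G proteins, had 0.940 and 0.976 TPM in NC against 4.78 and 5.90 TPM in sh-ANP32B (log2 fold change 1.69, limma adjusted p 0.0406). CD93, a surface protein once described as a C1q receptor, had 136 and 142 TPM in NC against 243 and 266 TPM in sh-ANP32B (log2 fold change 0.87, limma adjusted p 0.0348). CALR, calreticulin, an endoplasmic reticulum chaperone that also binds C1q, differed by -0.34 on the log2 scale (limma adjusted p 0.154).

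These 7 calls depended on the fit, as did those of the whole table. The 13 genes include C1QA, C1R and C5AR2, admitted by their sh-ANP32B values. Nothing is therefore read from counts out of 13 beside shares of all genes. With 1 TPM required in every sample, 10 other complement genes were tested. Of these, 5 rose and 0 fell, beside 3.55% and 2.06% of all genes tested then. Without the abundance trend 0 of the 7 calls passed, and 10 of the 13 genes and 22.0% of all genes had an unadjusted p under 0.05. With GC correction 11 of the 13 passed, 9 higher and 2 lower, beside 17.9% of all genes. Without NC replicate 2 the count was 3, beside 1.62% of all genes, and without sh-ANP32B replicate 1 it was 12, beside 24.3%. ITGAX and C5AR2 passed in every alternative that tested them but the fit without the trend. The other calls were lost without the trend and also elsewhere, C2 without NC replicate 2, CD93 without either NC replicate, and ITGB2 under median-of-ratios scaling and without NC replicate 2. C1QA was lost under 3 of the 4 other scalings, and C1R under quantile normalization, with a pseudocount of 0.1 and without NC replicate 2.

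The genes next to the members in the genome were also read. The members have 18 different nearest protein-coding neighbours that are not members themselves, of which 12 were tested. C5AR2, which begins 10109 bases beyond C5AR1, was tested only because of its sh-ANP32B values. Of the other 11, 1 rose and 0 fell, beside 2.14% and 1.18% of all genes. It was NECAP1, a gene of clathrin-mediated endocytosis 10580 bases beyond C3AR1, with 17.5 and 18.0 TPM in NC against 34.4 and 34.0 TPM in sh-ANP32B (log2 fold change 0.91, limma adjusted p 0.0425). This call was lost without the abundance trend and without either NC replicate. ELANE, the gene of neutrophil elastase 3206 bases before CFD, had 316 and 292 TPM in NC against 433 and 505 TPM in sh-ANP32B, and missed the threshold at a log2 fold change of 0.62 (adjusted p 0.0586 by limma). ELANE and the overlapping genes below were picked out after their values were seen.

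Some members overlap other genes, and reads in the overlap can be given to either. CFP is overlapped on the same strand over 5571 bases by the noncoding gene ENSG00000283743, which was not analysed here. CR1 is overlapped on the opposite strand over 54631 bases by the noncoding gene ENSG00000236911, which was under 1 TPM in every sample. GPR108 overlaps C3 by 649 bases on the same strand, and it had 69.5 and 72.1 TPM in NC against 131 and 132 TPM in sh-ANP32B (log2 fold change 0.88, limma adjusted p 0.0348), a call lost in the same 3 alternatives as that of NECAP1. MED16 overlaps CFD by 255 bases on the opposite strand, and differed by 0.06 on the log2 scale (adjusted p 0.864 by limma). The noncoding gene MIR29B2CHG overlaps CD46 by 34864 bases on the opposite strand. It had 1.68 and 1.84 TPM in NC against 6.31 and 5.60 TPM in sh-ANP32B (log2 fold change 1.33, limma adjusted p 0.0463), low beside CD46 itself. C1QBP overlaps DHX33 by 7914 bases on the same strand and RPAIN by 101 bases on the opposite strand, with log2 fold changes of -0.30 and 0.06 (limma adjusted p 0.324 and 0.865). Whether the counting of the authors used strand is not given in the sources used here, so these overlaps leave the values of CFP, CFD, C3, CR1, CD46 and C1QBP uncertain by an amount that was not tested.

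The knockdown replicates differed from each other along GC content, and several members moved with this. Across 15427 tested genes, Spearman's rho between GC content (of a gene's longest transcript) and the difference of sh-ANP32B replicate 2 from replicate 1 was 0.577. This describes these libraries, and genes are not independent replicates. CFD, with 65.1% GC, lay 0.99 log2 units higher in replicate 2, where the median of genes of similar GC content (1 of 10 equal bins) was 0.44. CFP, with 54.9% GC, lay 0.67 higher, beside a median of 0.20 in its bin. At the other end, CD46 (37.7% GC) lay 0.37 lower and CD55 (40.8% GC) 0.39 lower, beside medians of -0.36 and -0.25. C3, with 56.5% GC, differed by only 0.04. With GC correction in each sample the log2 fold changes were 1.95 for CFP, 1.72 for CFD, 0.86 for C3, 0.21 for CD46 and 0.31 for CD55, all with the sign they had before.

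**Figure D4:**
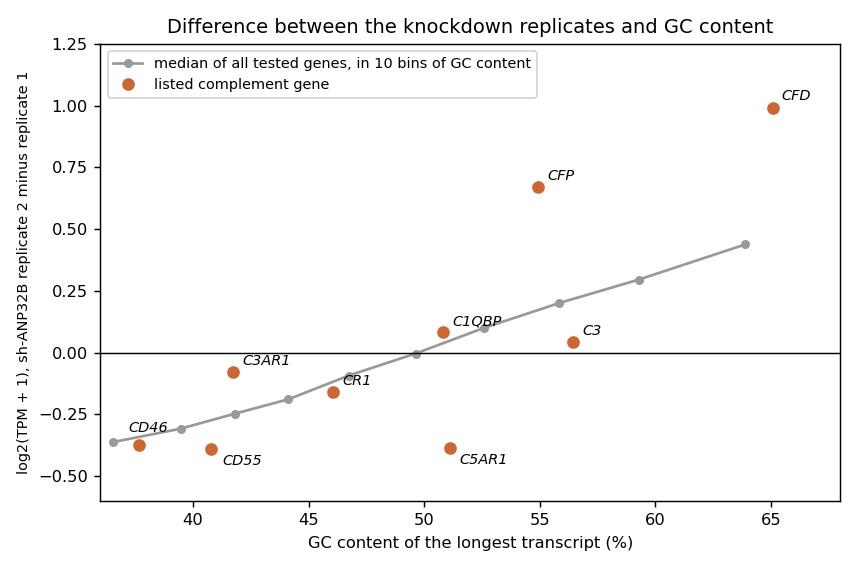
Difference in log2(TPM + 1) between sh-ANP32B replicate 2 and replicate 1 (vertical axis) against the GC content of the longest transcript in percent (horizontal axis). Orange points are 9 complement genes and the grey line joins the medians of all tested genes in 10 bins of GC content. CFD (0.99) and CFP (0.67) lie above the line, and C5AR1 (-0.39) lies below it.

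The 5 protein-coding genes with a pattern most like that of CFP over the 4 samples were SEMA6B, TYROBP, CFD, NCF1 and SERPINA1. Likeness was the Euclidean distance between log2(TPM + 1) values centred on the NC mean, among 8573 other genes with a mean of at least 10 TPM, and it was 0.212, 0.225, 0.292, 0.339 and 0.481 for these genes. CFD, the third, is a member of the list. It was selected on the same contrast as CFP, so nothing is read from its place here. TYROBP, a signaling adaptor of myeloid receptors, had 65.4 and 55.4 TPM in NC against 211 and 270 TPM in sh-ANP32B. SEMA6B, a semaphorin, had 12.7 and 10.9 TPM in NC against 34.2 and 60.8 TPM in sh-ANP32B. Both shared with CFP the higher NC replicate 1 and the higher sh-ANP32B replicate 2. SEMA6B (69.7% GC) and TYROBP (58.4% GC) lay 0.81 and 0.36 log2 units higher in sh-ANP32B replicate 2 than in replicate 1. The medians of their GC bins were 0.44 and 0.30, and the part of GC content in this likeness was not tested. NCF1 has near-identical copies in the genome, so its value is uncertain. With 4 samples in 2 groups, this likeness mostly describes the difference between the groups.

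Over 15 alternatives, values on the log2 scale ran from 1.66 to 2.33 for CFP, from 1.39 to 2.38 for CFD, from 0.84 to 0.96 for C3, from 1.04 to 1.31 for C3AR1, from 0.78 to 1.54 for C5AR1, from 0.54 to 0.85 for CR1 and from -0.89 to -0.75 for C1QBP. CD55 ranged from 0.03 to 0.42. CD46 changed sign, to -0.04, without sh-ANP32B replicate 1.

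**Figure D5:**
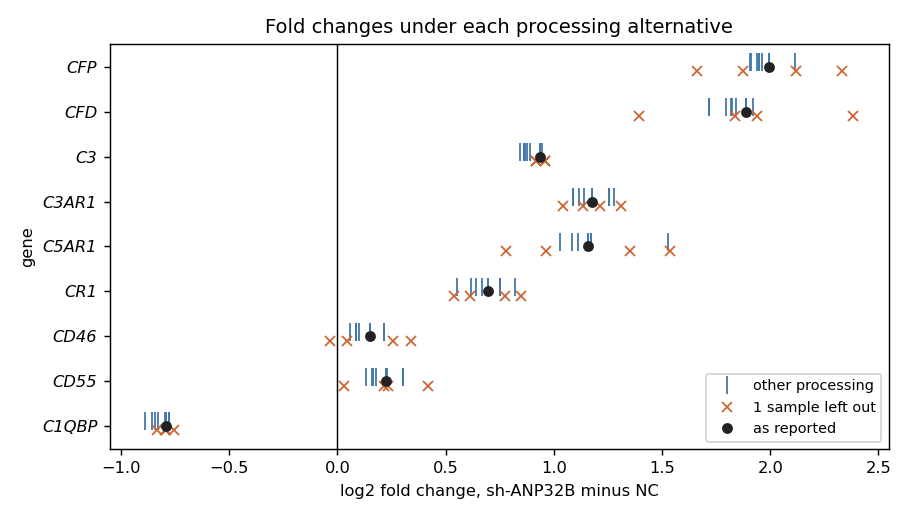
Log2 fold change of 9 complement genes, sh-ANP32B minus NC, as reported (black points), under other scalings, filters, pseudocounts, fits and GC correction (blue ticks), and with 1 sample left out (orange crosses). Leaving out 1 sample spreads CFD most (1.39 to 2.38), followed by C5AR1 (0.78 to 1.54) and CFP (1.66 to 2.33), and CD46 crosses 0.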

How the data were processed

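RNA of Kasumi-1 cells had been sequenced in 2 NC and 2 sh-ANP32B samples. Per the labels, the authors aligned the reads to hg38 with HISAT2 (2.0.5, per the submitters' processing notes). The deposited values are TPM, recognised as such because each column held decimals and summed to between 997812 and 998314. The program that made them, its annotation and any filter are not given in the sources used here. TPM keeps no depth, so no counting interval was computed. Of 18567 gene IDs, 16986 were found in GENCODE v44 (hg38), which gave symbols, positions and GC content.

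The 16817 genes that reached 1 TPM in 2 or more samples were tested on log2(TPM + 1) with limma 3.58.1 in R 4.3.3, variances following an abundance trend, two-sided, with Benjamini-Hochberg adjustment over all genes tested. The count model of the study was not run, as it needs counts. No value above 0 was identical between replicates. Motifs and GC content were computed in Python 3.11.15. The fit was first tested on simulated data.

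The members, the other gene lists and the markers were chosen with earlier results of these data known. Named are all members, other complement genes past the threshold and the 3 highest in NC, nearest neighbours past the threshold, and the 5 genes nearest to CFP in pattern. Genes described beside these illustrate their group, and some marker results are not reported here. The alternatives were other scalings, filters, a pseudocount of 0.1, no trend, GC correction (loess, span 0.3), a replicate block and leaving out each sample.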

Additional observations from a re-analysis of the deposited data

How the results depend on the processing

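ANP32B kept its direction in 15 alternatives, with a log2 fold change from -3.20 to -2.88, the range also when 1 sample was left out. It missed the threshold only without the abundance trend, at -3.04 with a limma adjusted p of 0.0929 (9.4e-42 to 0.0929 over the alternatives). Without the trend 0 genes of the whole table, 0 of the 9 members and 0 of the 13 other complement genes passed, against 559, 5 and 7 as reported and 3701, 7 and 10 at an unadjusted p under 0.05. With GC correction 2769 genes and 11 other complement genes passed. The 13 other complement genes include C1QA, C1R and C5AR2, which were tested only because of their sh-ANP32B values. Leaving out 1 sample, where the lone sample is assumed to vary like the other group, gave 273 (without NC replicate 2) to 4079 (without sh-ANP32B replicate 1) genes, 2 to 7 members and 3 to 12 other complement genes. The cause of these shifts was not tested.

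The groups share replicate numbers, but samples with the same number did not depart from their group means together (Pearson r -0.0925 and Spearman rho -0.168 across 16817 genes), and the labels name no pairing. With the replicate block 1473 genes, 6 members and 8 other complement genes passed, and with the replicate block and GC correction 2229, 6 and 9. The remaining alternatives, the other scalings, filters and the pseudocount, kept 5 members past the threshold and 5 to 7 other complement genes. With 2 samples a group, the depth unknown and genes such as C1R, C5AR2 and C5AR1 within a few TPM of 0, small differences were not detectable.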
